A study of Mus musculus with 6 samples.

Results

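The tryptase cluster proteases are 5 neighbouring genes of mouse chromosome 17 (Prss34, Prss28, Prss29, Tpsab1 and Tpsb2) that encode or resemble secreted trypsin-like serine proteases. Their members here were all probes of the array's value table whose annotated gene symbol is one of these 5 names, which gave 6 probes for 5 of the 19406 genes with a symbol on the array. Tpsb2 had 2 probes and the other 4 genes had 1 each. The genes were chosen by their deposited values on wild-type and Aire knockout arrays, so that contrast is described for them and not tested.

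The samples were MHCIIhi mTECs, that is, epithelial cells of the thymic medulla with much MHC class II, from C57BL/6 mice, 3 wild-type and 3 Aire knockout, each measured on an Illumina bead array in a single colour. Every sample carried the same strain and the same cell label. The 3 female samples were wild-type replicate 1, wild-type replicate 3 and knockout replicate 2, and the other 3 were male. Each beadchip held both genotypes: wild-type 1, wild-type 2 and knockout 1 shared beadchip 1, and the other 3 arrays shared beadchip 2. By their date labels wild-type 1 and 2 precede the other 4 samples, and the labels do not say what was done on that date. The labels state neither the age of the mice, the Aire allele nor further gates of the sort, and do not say whether mice were pooled, so p-values measure only the spread between these samples.

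mTECs transcribe many genes that otherwise belong to single peripheral tissues, and the transcriptional regulator Aire promotes a large part of this. Tryptases are proteases best known from the granules of mast cells and basophils, where they are stored on heparin and released as active enzymes. Within this cluster Tpsb2 encodes mast cell protease 6 and Tpsab1 mast cell protease 7, Prss34 encodes mast cell protease 11, which is known from basophils, and Prss28 and Prss29 encode the implantation serine proteases 1 and 2 of the uterine glands. In the RefSeq annotation of the C57BL/6J assembly GRCm38.p6, Tpsab1 is listed as a transcribed pseudogene, and this strain is known to lack the mast cell protease 7 protein. In RefSeq order the cluster runs Prss34, Prss28, Prss29, Tpsab1, Tpsb2, with Tpsg1, a membrane-anchored tryptase, directly after it.

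RefSeq promoters (250 bases before to 50 bases after the start, GRCm38.p6) were found for 3 of the 5 genes, Prss28, Prss29 and Prss34. They are shown because 3 neighbouring genes read lower together, and because the adjacent implantation protease genes share stretches of sequence that Prss34 lacks. In the Prss28 promoter (chr17:25308396-25308695, plus strand) and the Prss29 promoter (chr17:25318404-25318703, plus strand) capitals mark every exact run of at least 12 bases that the pair share. In the Prss34 promoter (chr17:25298144-25298443, plus strand) capitals mark the motif AGATAA.
Prss28: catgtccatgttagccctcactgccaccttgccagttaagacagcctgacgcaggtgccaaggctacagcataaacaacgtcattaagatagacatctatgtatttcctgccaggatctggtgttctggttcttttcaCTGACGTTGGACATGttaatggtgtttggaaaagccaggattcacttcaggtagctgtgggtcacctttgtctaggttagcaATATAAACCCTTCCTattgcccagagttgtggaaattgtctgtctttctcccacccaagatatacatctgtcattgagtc
Prss29: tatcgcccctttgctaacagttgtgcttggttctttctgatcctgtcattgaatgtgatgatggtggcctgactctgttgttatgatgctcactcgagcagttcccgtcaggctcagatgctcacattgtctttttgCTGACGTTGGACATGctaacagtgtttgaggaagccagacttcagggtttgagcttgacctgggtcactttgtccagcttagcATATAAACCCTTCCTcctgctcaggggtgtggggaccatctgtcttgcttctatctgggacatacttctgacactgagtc
Prss34: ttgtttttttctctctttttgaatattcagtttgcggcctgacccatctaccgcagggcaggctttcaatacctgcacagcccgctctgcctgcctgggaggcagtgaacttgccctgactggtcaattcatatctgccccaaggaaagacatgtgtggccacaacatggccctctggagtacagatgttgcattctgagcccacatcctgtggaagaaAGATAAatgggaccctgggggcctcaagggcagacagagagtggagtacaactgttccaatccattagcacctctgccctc

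The Prss28 and Prss29 promoters were identical at 63.4% of the columns of a global alignment (196 bases), against 46.4% for Prss28 with Prss34 and 44.8% for Prss29 with Prss34. The pair shared 2 exact runs of 15 bases. One, CTGACGTTGGACATG, began 112 bases before the start of Prss28 and 113 bases before that of Prss29, and the other, ATATAAACCCTTCCT, began 30 bases before both starts. No exact run of 12 bases was shared with Prss34. The motif TATAAA (the core of a TATA box, both strands searched) lay inside the second run, 29 bases before the start of Prss28 and of Prss29, and was not found in the Prss34 window. It occurs in 13.6% of the 32851 promoters of this length. AGATAA, a motif of GATA factors, was found once in Prss34, 31 bases before the start, in neither of the others, and in 11.2% of all promoters. CACGTG, an E-box, was found in none of the 3 and in 7.15% of all promoters. The motifs were chosen after the sequences were seen, and a match is a description of the letters and not evidence of binding.

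Values are the deposited normalized log2 units. A probe counted as above background when it exceeded the array's background bound, the mode of all probes plus 3 SD of the spread below the mode, which was 6.81 on every array. Because a background level remains in the values, a difference of a dim probe is compressed, and differences of separate probes also depend on how each probe responds. Where a probe was above background on no knockout array, the fold is a lower bound, set against the lowest signal above background.

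All 5 genes had a probe above background on the 3 wild-type arrays, and none of the 6 probes was above background on any knockout array. On 5 of the 6 probes the lowest wild-type value lay above the highest knockout value. Of all 19420 tested probes (above background on at least 3 arrays), 21% had groups that did not overlap with the knockout lower and 31.8% with the knockout higher, and 5.91% were above background on all wild-type and no knockout arrays. The genotype contrast chose the members, so nothing is read from these counts. In these bulk samples, fewer cells that transcribe a gene and less RNA per cell cannot be told apart.

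**Figure D1:**
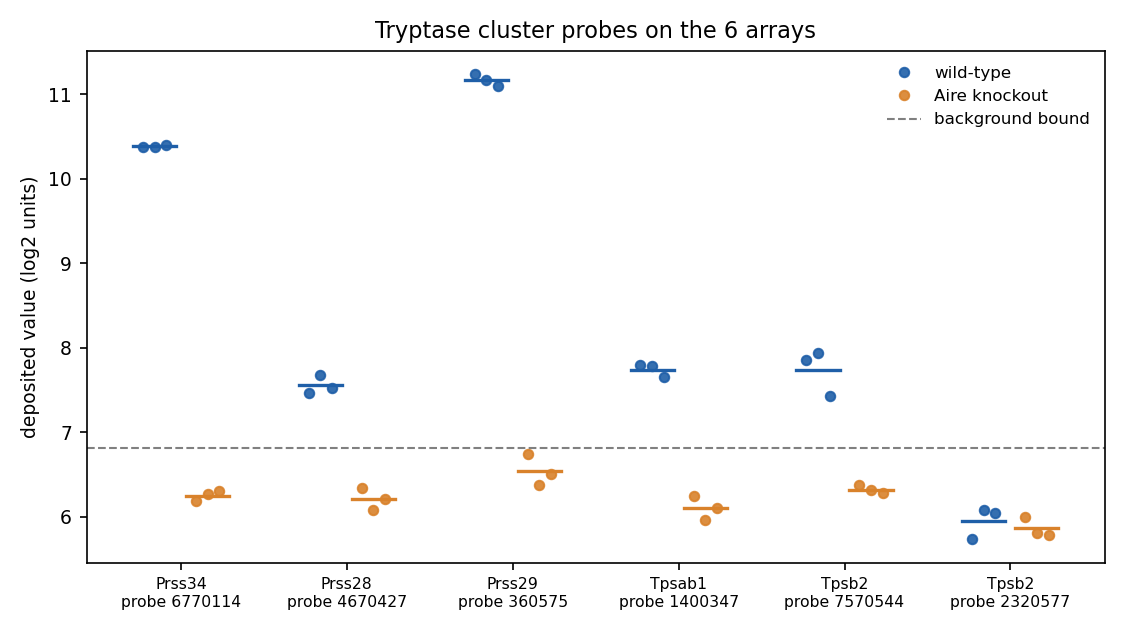
Deposited value (log2 units, vertical axis) of each of the 6 probes of the tryptase cluster on the 3 wild-type and 3 Aire knockout arrays, in chromosomal order of the genes; points are arrays, short lines are group means and the dashed line is the background bound of 6.81. Prss34 and Prss29 stand near 10.39 and 11.17 in wild type, Prss28, Tpsab1 and 1 Tpsb2 probe between 7.43 and 7.94, and all knockout points lie under the bound.

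Prss29, the implantation serine protease 2, read 11.24, 11.17 and 11.10 in wild-type replicates 1 to 3, against 6.74, 6.37 and 6.51 in knockout replicates 1 to 3. The wild-type arrays were all high and close together, while knockout array 1 came nearest to the background bound without passing it. The group values were 11.17 ± 0.07 and 6.54 ± 0.18 (SD, n = 3 each), a difference of −4.63 log2 units, at least 20.6-fold lower in the knockout.

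Prss28, the implantation serine protease 1, lies next to Prss29 and read 7.47, 7.68 and 7.52 on wild-type arrays 1 to 3. On knockout arrays 1 to 3 it read 6.34, 6.08 and 6.21. All wild-type values were moderately above background and all knockout values were below it, with a gap of 1.13 between the groups. The difference between 7.55 ± 0.11 and 6.21 ± 0.13 (SD, n = 3 each) was −1.35, at least 1.68-fold lower.

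Prss34, the mast cell protease 11 gene at the other side of Prss28, read 10.38, 10.38 and 10.40 on wild-type arrays 1 to 3. Its knockout values were 6.18, 6.27 and 6.30. The wild-type arrays spanned 0.02 log2 units, the narrowest wild-type range among the 6 probes, and the knockout arrays spanned 0.12. The means were 10.39 ± 0.01 and 6.25 ± 0.07 (SD, n = 3 each), a difference of −4.14, at least 11.9-fold lower.

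Tpsab1, the mast cell protease 7 gene annotated as a transcribed pseudogene in this strain, read 7.79, 7.78 and 7.65 in wild-type replicates 1 to 3. The knockout arrays read 6.24, 5.96 and 6.10. A gap of 1.42 log2 units separated the groups. The difference of −1.64 between 7.74 ± 0.08 and 6.10 ± 0.14 (SD, n = 3 each) corresponds to at least 1.91-fold lower.

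The brighter probe of Tpsb2 (7570544), the mast cell protease 6 gene, read 7.85, 7.94 and 7.43 in wild-type replicates 1 to 3, against 6.37, 6.31 and 6.28 in the knockout replicates. Wild-type replicate 3 was lower than the other 2 wild-type arrays, which gave this probe the widest wild-type range of the 6 (0.51). The means were 7.74 ± 0.27 and 6.32 ± 0.04 (SD, n = 3 each), with a difference of −1.42, at least 1.91-fold lower. The other Tpsb2 probe (2320577), annotated to the same RefSeq transcript, read 5.73, 6.08 and 6.04 in wild type and 6.00, 5.81 and 5.78 in the knockout. It was below background on all 6 arrays, its groups overlapped, and it was not tested, so the 2 probes of Tpsb2 disagree. Tpsab1 and Tpsb2 are close paralogs, probe sequences were not used here, and how far either probe reads the other gene's transcript was not tested.

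All differences of the brighter probes were negative within each beadchip and each sex. For Prss29 the knockout minus wild-type difference was −4.47 on beadchip 1 and −4.66 on beadchip 2, and −4.54 in males and −4.80 in females. For Prss34 it was −4.20 and −4.11 on the beadchips and −4.15 and −4.11 in males and females. Prss28 gave −1.23 and −1.38 on the beadchips and −1.40 and −1.42 in males and females. Tpsab1 gave −1.55, −1.62, −1.61 and −1.76 in the same order. The brighter Tpsb2 probe varied most, with −1.53 on beadchip 1, −1.14 on beadchip 2, −1.62 in males and −1.33 in females. Each of these values rests on 3 arrays, with 1 array in 1 of the groups. On the 4 arrays with the later date label, of which 1 is wild-type, the differences were −4.56 for Prss29, −4.15 for Prss34, −1.55 for Tpsab1, −1.31 for Prss28 and −1.12 for the brighter Tpsb2 probe.

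Sex and beadchip, which the choice of members did not use, were tested with limma in models that also held genotype, adjusted over all 19420 tested probes. None of the 5 tested member probes passed for sex or for beadchip, and none had an unadjusted p under 0.05 in either test (0 of 5 each). Across all tested probes 0.00515% were called for sex and 0.0515% for beadchip. Of the 19420 tested probes, 667 had an unadjusted p under 0.05 for sex and 851 for beadchip. With so few probes passing in either test, nothing is read from the 0 of 5. The male minus female difference was 0.19 (SE 0.10, adjusted p = 0.972) for Prss28, 0.16 (SE 0.14, adjusted p = 0.972) for Tpsb2, 0.13 (SE 0.11) for Tpsab1, 0.12 (SE 0.12) for Prss29 and −0.02 (SE 0.10) for Prss34. The beadchip 2 minus beadchip 1 difference ran from −0.27 (SE 0.12, adjusted p = 0.958) for Tpsb2, whose wild-type replicate 3 is on beadchip 2, to 0.06 (SE 0.10, adjusted p = 0.978) for Prss34.

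Among themselves, the members differed mainly in the size of the difference. The root mean square difference between the centred values of 2 probes over the 6 arrays was 0.288 for Prss29 and Prss34, and 0.158 to 0.171 for the pairs among Prss28, Tpsab1 and Tpsb2. Between the former and the latter it was 1.253 to 1.644. Since every knockout value was at background, the size of a difference follows the wild-type brightness of its probe and gives no order between the genes.

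The named genes with the most similar profiles over the 6 arrays were taken by the same measure, 3 for each member. For Prss29 they were Obp2a, an odorant-binding protein (0.124), the gut hormone gene Pyy (0.156) and the neuropeptide gene Gal, galanin (0.178). For Prss34 they were Pgc, the precursor of a gastric protease (0.073), the cornified envelope gene Lce3b (0.079) and the chemokine gene Xcl1 (0.084). The profile of Tpsab1 lay closest to Tmprss7, another trypsin-fold protease (0.063), and to the transporter genes Slc17a2 (0.068) and Slc17a6 (0.069). Prss28 was closest to Higd1b (0.039), Acsbg3 (0.049) and the beta-defensin gene Defb14 (0.055), and Tpsb2 to Bves (0.051), Bsnd, a chloride channel subunit of the kidney and inner ear (0.060), and the troponin gene Tnnt1 (0.061). Each of these genes had a negative difference, and the measure rests mainly on the genotype contrast that chose the members.

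The genes on either side of the cluster were compared to see how far along the chromosome the lower values extend. Of the 10 protein-coding genes on each side, 17 of 20 had a probe and 15 were tested. With limma (Benjamini-Hochberg adjustment over all tested probes), 5 fell, 1 rose and 9 did not pass, with a median log2 change of −0.13. Among all 11740 tested named genes 23.1% fell and 18.3% rose, with a median of 0.02. The nearest tested gene before Prss34 was Tsr3, a ribosome maturation factor, at 10.13 ± 0.10 in wild type and 10.12 ± 0.13 in the knockout (−0.01, adjusted p = 0.955). Next to Tpsb2, Tpsg1 was below background on all arrays (6.15 ± 0.07 and 6.17 ± 0.14) and was not tested.

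Beyond Tpsg1, Cacna1h, a T-type calcium channel gene, fell by 0.74 (SE 0.14, adjusted p = 0.00237) and Tekt4, a tektin of sperm flagella, fell by 1.23 (SE 0.16, adjusted p = 0.000206). Cacna1h was not called on beadchip 1 alone, on beadchip 2 alone or on the arrays with the later date label. On the other side of the cluster, before Prss34, Ccdc154 also fell (at least 1.78-fold lower, adjusted p = 0.000172, not called on beadchip 1 alone). The pentraxin gene Ptx4, farther out on that side, fell too (at least 1.15-fold lower, adjusted p = 7.11e-05). Both genes passed the filter only through wild-type arrays. On the Tpsg1 side, beyond Tekt4, Chtf18, a factor of sister chromatid cohesion, fell by 0.45 (SE 0.11, adjusted p = 0.00941). This call was lost on each beadchip alone, in each sex alone and on the arrays with the later date label. Rpusd1, the next gene after Chtf18, rose by 0.30 (SE 0.10, adjusted p = 0.0411), and this call was lost under 15 of 21 alternatives. The 5 members had differences of −4.63 to −1.35 on their brightest probes, and the tested flanking genes −1.23 to 0.30, as a description with no test, since the members were chosen for this contrast.

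**Figure D2:**
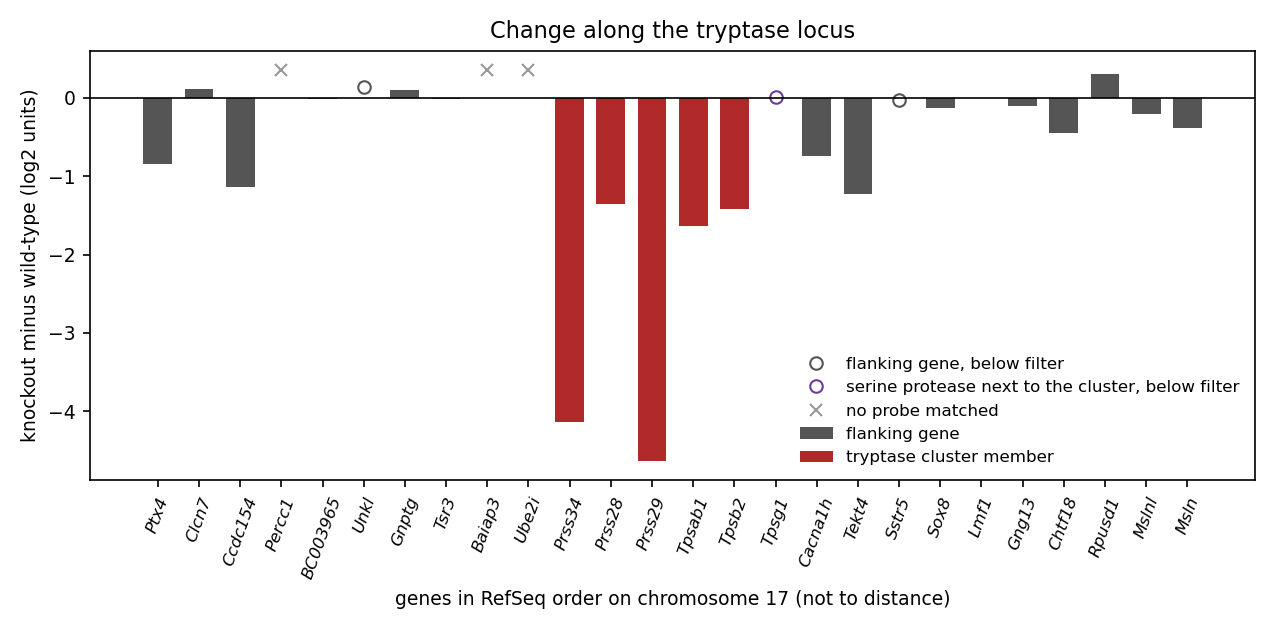
Knockout minus wild-type difference (log2 units, vertical axis) of the brightest tested probe of each gene in RefSeq order along chromosome 17, not to distance; red bars are the tryptase cluster, grey bars flanking genes, open circles genes that did not pass the filter on dim probes and crosses genes with no matched probe. The cluster's bars reach from −1.35 to −4.63, and the flanking bars lie between −1.23 and 0.30.

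A separate group of related proteases lies on the same chromosome, with 61 to 72 genes between them and Prss34. They include Prss21 (testisin, which is membrane-anchored), Prss22 (tryptase epsilon) and Prss27 (pancreasin). Together with Tpsg1 this list had 8 genes, 7 with a probe and 4 tested. All 4 fell in the knockout, with a median change of −0.83, while 23.1% of all tested named genes fell. Prss27 went from 7.97 ± 0.14 to 6.62 ± 0.12 (SD, n = 3 each), at least 2.23-fold lower (adjusted p = 1.2e-05). Prss22 fell by 0.98 (SE 0.11, adjusted p = 8.59e-05), Prss30 fell by 0.68 (SE 0.10, adjusted p = 0.000626) and Prss21 fell by 0.47 (SE 0.10, adjusted p = 0.00445). On beadchip 1 alone Prss30 and Prss21 were not called, and Prss21 was also lost on beadchip 2 alone, in each sex alone and on the arrays with the later date label. Prss21 and Prss27 passed the filter only through their wild-type arrays. With only probes above background on all 6 arrays 1 gene of the list fell. Prss32 and Prss41 did not pass the filter. The Prss32 probe 5670707 read 6.77, 6.80 and 7.04 in wild type and 5.91, 6.38 and 6.10 in the knockout.

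Among 67 other listed serine proteases, trypsin-fold apart from Prss16, 55 had a probe and 24 were tested. Of these, 10 fell and 5 rose (median −0.26), against 23.1% and 18.3% of all tested named genes. Of the 10, the 5 genes Prss1, Cela1, Cela2a, Cela3b and Try4 passed the filter only through wild-type arrays, and with only probes above background on all 6 arrays 3 fell and 5 rose. Several of them encode pancreatic digestive enzymes. Chymotrypsinogen (Ctrb1) fell by 4.87 (SE 0.20) and trypsinogen (Prss1) was at least 18-fold lower, with an adjusted p of 7.43e-08. The elastases Cela2a (at least 7.35-fold lower, adjusted p = 2.41e-08) and Cela3b (at least 6.46-fold, adjusted p = 2.47e-08), the trypsin gene Try4 (at least 2.97-fold, adjusted p = 3.89e-07) and Tmprss7 (−1.66, SE 0.10) also fell. These calls held under every alternative in which the genes were tested.

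**Figure D3:**
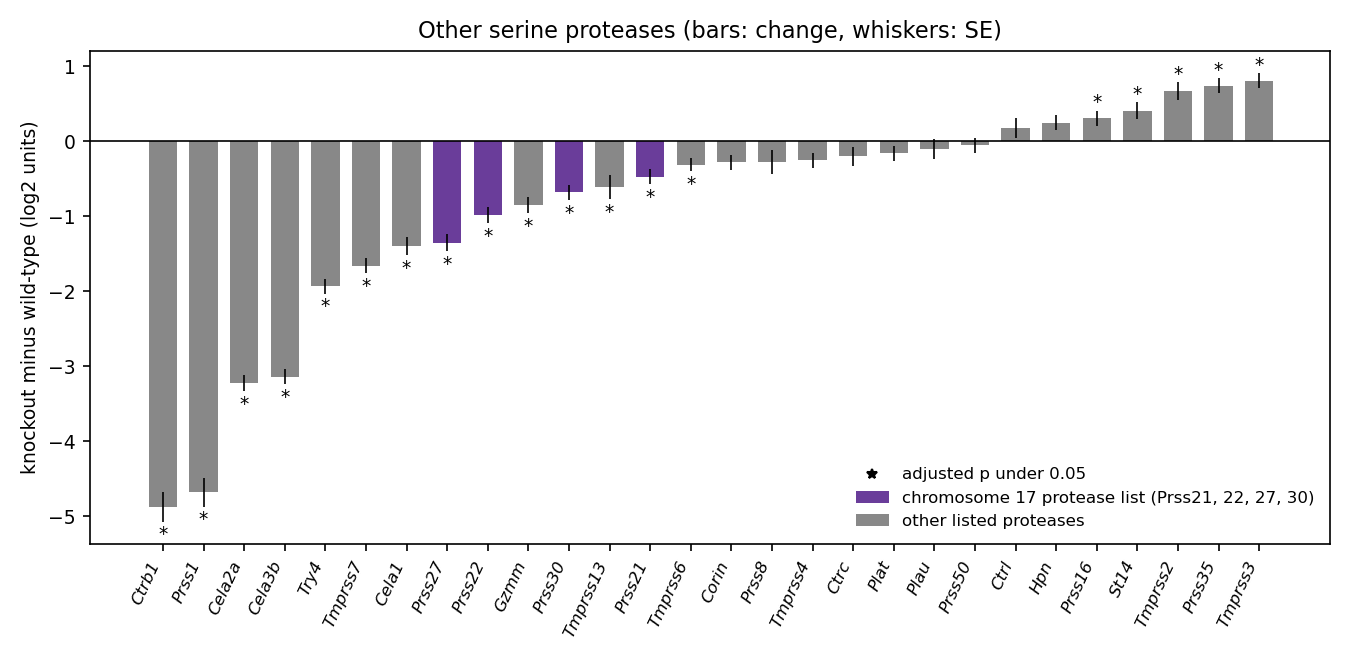
Knockout minus wild-type change (log2 units, vertical axis) of the 28 tested serine protease genes outside the cluster, with the standard error of limma as whiskers; stars mark an adjusted p under 0.05, purple bars are the 4 tested genes of the chromosome 17 protease list and grey bars the other 24. The purple bars lie at −1.35, −0.98, −0.68 and −0.47, and the grey ones reach from −4.87 to 0.81.

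Because tryptases are known from mast cells and basophils, markers of those cells were examined beside the members. Of 23 markers 21 had a probe and 12 were tested. Of these, 7 fell and 3 rose (median −0.66, and −0.38 with genes at their bound), against 23.1% and 18.3% of all tested named genes. The list includes 5 genes that passed the filter only through wild-type arrays, and with only probes above background on all 6 arrays 1 fell and 3 rose. The granule proteases Mcpt4 (at least 4.84-fold lower, adjusted p = 5.26e-08), Ctsg, cathepsin G (at least 1.68-fold lower, adjusted p = 6.1e-06), and Cma1, a chymase (−1.62, SE 0.12, adjusted p = 6.68e-06), fell. The transcription factor gene Gata2 was at least 1.96-fold lower (adjusted p = 4.14e-06), the IgE receptor chain gene Fcer1a at least 1.27-fold (adjusted p = 4.57e-05) and the receptor gene Mrgprb2 at least 1.35-fold (adjusted p = 0.000554, not called on beadchip 1 alone).

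Other markers of these cells did not follow that direction. Hdc, which makes histamine, read 13.17 ± 0.15 in wild type and 13.66 ± 0.09 in the knockout, and rose by 0.50 (SE 0.11, adjusted p = 0.00611). Kit, the stem cell factor receptor, read 10.92 ± 0.16 and 11.52 ± 0.14 and rose by 0.61 (SE 0.12, adjusted p = 0.00308). Both calls were lost on each beadchip alone and in males alone, and that of Hdc also in females alone. Prg2, a granule protein gene of eosinophils, read 12.35 ± 0.10 and 12.93 ± 0.16 and rose by 0.58 (SE 0.11, adjusted p = 0.00321), a call lost on each beadchip alone, in females alone and on the arrays with the later date label. Kit, Hdc and Prg2 were thus well above background in both genotypes.

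Of the 21 markers 9 did not pass the filter on dim probes, among them genes that define these cells. Cpa3, the carboxypeptidase of mast cell granules, read 6.14, 6.23 and 6.12 in wild type and 6.14, 6.18 and 6.09 in the knockout on its brighter probe. Ms4a2, the beta chain of the IgE receptor, read 6.51, 6.56 and 6.57 in wild type and 6.21, 6.53 and 6.24 in the knockout. Mcpt8, a basophil protease, read 6.12, 6.41 and 5.93 in wild type and 6.01, 5.79 and 5.72 in the knockout. These 3 genes, like Mcpt2, Slc18a2 and Cd200r3, were above background on none of the 6 arrays. Mcpt1, a granule protease gene that also did not pass, differed from them. It read 6.62, 7.16 and 6.91 in wild type and 6.04, 6.06 and 5.98 in the knockout. It was above background on 2 wild-type arrays and on no knockout array. The summed level of the 21 genes on the linear scale was 18949 to 20793 in wild type and 25806 to 26307 in the knockout, and Hdc, Prg2 and Kit are its brightest genes.

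**Figure D4:**
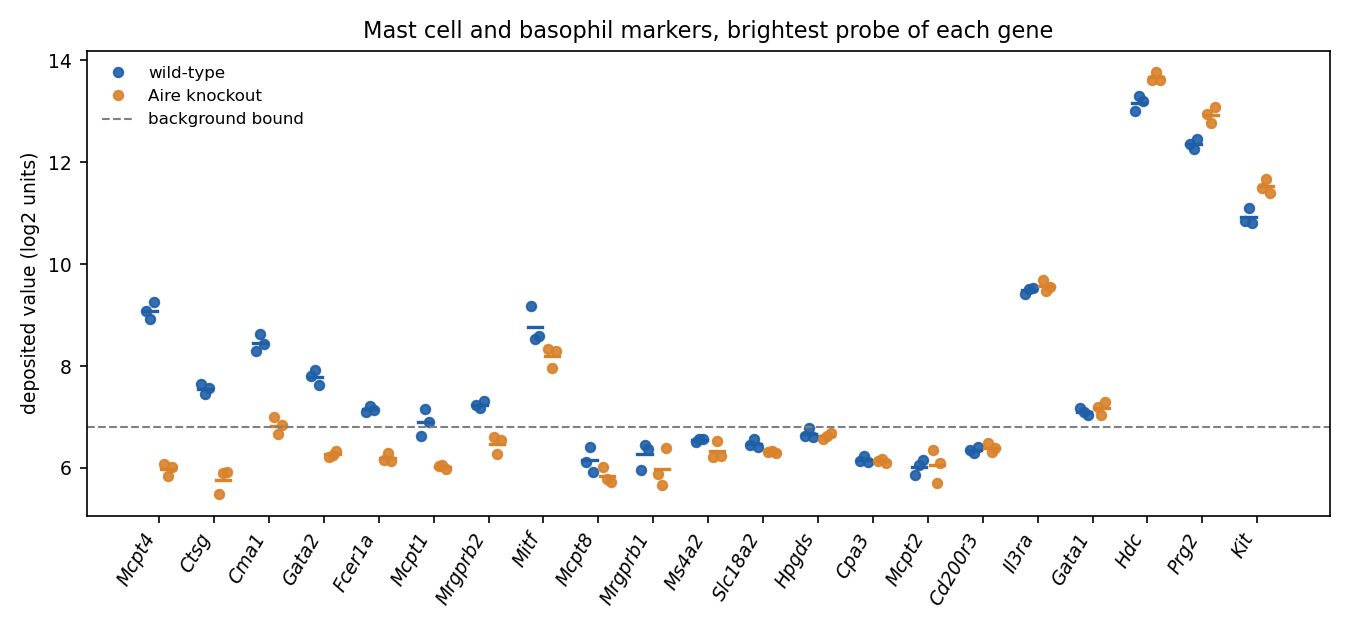
Deposited value (log2 units, vertical axis) of the brightest probe of each of 21 mast cell and basophil markers on the 3 wild-type and 3 Aire knockout arrays, ordered by the difference; points are arrays, short lines are group means and the dashed line is the background bound of 6.81. Mcpt4, at the left, goes from 9.08 to 5.98, Cpa3, Mcpt8 and Ms4a2 lie under the line in both groups, and Hdc, Prg2 and Kit, at the right, stand between 10.80 and 13.77.

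Genes that activate or store tryptases, or encode their substrates, were examined next. Of 21 listed genes 17 had a probe and 12 were tested. Of these, 4 fell and 2 rose (median −0.15), against 23.1% and 18.3% of all tested named genes. Fga passed the filter only through wild-type arrays. With only probes above background on all 6 arrays 2 fell and 1 rose. Ctsc, the dipeptidyl peptidase that activates granule proteases, read 11.20 ± 0.12 in wild type and 11.34 ± 0.04 in the knockout and did not pass (adjusted p = 0.285). The heparin-sulfating enzyme gene Ndst2 (9.76 ± 0.20 and 9.67 ± 0.09, adjusted p = 0.594) did not pass either. Srgn, serglycin, the granule proteoglycan core, rose by 0.41 (SE 0.14, adjusted p = 0.0451), but this call was lost under 16 of 21 alternatives, and a second probe gave 0.63 without passing. The sulfotransferase gene Hs2st1 rose by 0.49 (SE 0.12, not called on beadchip 1 alone or in either sex alone). Of known tryptase substrates, the fibrinogen chain gene Fga was at least 4.76-fold lower (adjusted p = 2.63e-07), the kininogen gene Kng1 fell by 2.91 (SE 0.10, adjusted p = 2.59e-08) and fibronectin (Fn1) fell by 0.30 (SE 0.10, adjusted p = 0.0429, lost under 14 of 21 alternatives). A second Kng1 probe was above background on no array, at 5.78 ± 0.17 in wild type and 6.09 ± 0.13 in the knockout. On the same list Plau (−0.10, adjusted p = 0.557) and the brighter Mmp3 probe (−0.50, adjusted p = 0.265) did not pass. The other fibrinogen chain genes, Fgb and Fgg, and Vip were above background on no array. The heparan sulfate polymerase gene Ext1 fell by 0.73 (SE 0.15, not called on beadchip 2 alone, in females alone or on the arrays with the later date label).

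For Prss28 and Prss29, genes of the uterine glands were set beside the cluster. Of 20 listed genes 19 had a probe and 13 were tested. Of these, 6 fell and 2 rose (median −0.25), against 23.1% and 18.3% of all tested named genes. Cxcl15 and Ihh passed the filter only through wild-type arrays. With only probes above background on all 6 arrays 3 fell and 1 rose. Lactotransferrin (Ltf) fell by 3.89 (SE 0.29, adjusted p = 5.48e-06), the trypsin inhibitor gene Spink1 fell by 2.41 (SE 0.15), Prap1 fell by 1.73 (SE 0.11), the chemokine gene Cxcl15 was at least 1.81-fold lower (adjusted p = 1.07e-05), and the transcription factor gene Klf5 fell by 1.55 (SE 0.10). The connexin gene Gjb2 rose by 1.04 (SE 0.25, adjusted p = 0.00953), a call lost on each beadchip alone and in females alone. The gland transcription factor Foxa2 and the progesterone receptor Pgr were above background on no array. Other regulators of the list were tested. Ihh was at least 1.35-fold lower (adjusted p = 0.00108). The estrogen receptor gene Esr1 rose by 0.36 (SE 0.10, adjusted p = 0.0145) on 1 probe, and its other probes were above background on no array.

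Aire, the targeted gene, fell. Its brighter probe read 13.53 ± 0.13 in wild type and 10.22 ± 0.19 in the knockout (SD, n = 3 each; −3.31, SE 0.12, adjusted p = 4.59e-08) and remained above background in the knockout. Which part of Aire the knockout lacks, and whether the probe lies in it, was not determined here. All 14 mTEC markers with a probe were tested, and 3 fell and 3 rose. Beside Aire, the keratin genes Krt5 (−1.83, SE 0.28, adjusted p = 0.000659) and Krt14 (−0.70, SE 0.13, adjusted p = 0.00199) fell, while H2-Aa (0.45, SE 0.11), Tnfrsf11a (0.51, SE 0.09) and Ly75 (0.43, SE 0.11) rose. On each beadchip alone Krt14 and the 3 genes that rose were not called, and Krt5 was not called on beadchip 2 alone. Markers of other cells were also present. Of 6 tested thymocyte markers 2 fell and none rose. The summed linear level of all 10 thymocyte markers with a probe, tested or not, was 3561 to 4354 in wild type and 2590 to 3484 in the knockout. Of 5 tested dendritic cell and macrophage markers 2 fell and 1 rose. Of the 2 that fell, 1 passed the filter only through wild-type arrays. The sums over all 10 markers of this list with a probe were 7676 to 9592 in wild type and 8763 to 9868 in the knockout. Among all tested named genes 23.1% fell and 18.3% rose. The part of these other cells in the members' difference was not tested.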

How the data were processed

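RNA of 6 samples was measured on bead arrays with 46619 probes. The authors deposited log2 values that were already normalized. BeadStudio and lumi are named, per the submitters' processing notes, but which transform and normalization were run is not given, so folds take the scale as plain log2. A further 24 deposited columns match no sample label and were not used, so no detection p-values entered. The background bound was the array's mode plus 3 SD, and 19420 probes (41.7%) above it on at least 3 arrays were tested. Of all probes 32782 had 1 gene symbol, 55 several and 13782 none; each gene was represented by its brightest tested probe.

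The test of genotype was limma's (version 3.58.1, R 4.3.3; lmFit, eBayes, two-sided), with Benjamini-Hochberg adjustment over all tested probes and a threshold of 0.05, after tests on simulated data. The number of arrays limits the precision. Members, gene lists and the naming rule were chosen with earlier results of these data known. The rule names all members, tested genes of the chromosome 17 protease list, called flanking genes, up to 6 called genes of each other list, and selected mast cell genes. Other genes were named after their values were seen. They are Tsr3, Tpsg1, Prss32, Prss41, Prg2, Mcpt1, Mcpt2, Slc18a2, Cd200r3, Cela1, Ctsc and Ndst2. They also include Plau, Mmp3, Fgb, Fgg, Vip, Foxa2, Pgr, Ihh, Esr1, mTEC markers and those of the observations. Promoters came from RefSeq (GRCm38.p6) and were aligned with Biopython 1.88 (match 1, mismatch −1, gap opening −3, extension −0.5). Alternatives were cyclic loess, normexp (offset 50), other filters, beadchip or sex as a term, single beadchips or sexes, the later date label, the replicate block, a trended robust variance, averaged probes and leaving out each array.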

Additional observations from a re-analysis of the deposited data

How the results depend on the processing

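Over the alternatives, the difference of Prss29 ranged from −4.80 to −4.47, of Prss34 from −4.27 to −4.10, of Tpsab1 from −1.76 to −1.55, of Prss28 from −1.45 to −1.23, of the brighter Tpsb2 probe from −1.62 to −1.12 and of the dim one from −0.24 to 0.10. The median over the 6 probes was −1.53, and −1.65 with cyclic loess, which moved the median over all tested probes from 0.10 to 0.00 and the calls from 3446 lower and 4022 higher to 4122 and 2341. Leaving out each array in turn gave a median over the 6 probes of −1.63 to −1.47. Ranges were taken for the tested genes named in the text except Cela1, Plau, Mmp3, Ihh and Esr1. Of the genes with a range, Tsr3 and Ndst2, which were not called, changed sign. Tsr3 was 0.04 with beadchip as a block, 0.02 and 0.05 on beadchips 1 and 2 alone, 0.09 with the later date label, 0.06 with averaged probes and −0.06 to 0.06 leaving out each array. Ndst2 was 0.01 on beadchip 2 alone, 0.05 with the later date label and −0.15 to 0.03 leaving out each array.

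Counts that moved by over 1.5 times were as follows. Tested only where above background on all 6 arrays, the calls were 1 in the chromosome 17 protease list, 4 in mast cell markers, 8 in other proteases, 3 in tryptase partners, 4 in uterine gland genes and 3 in flanking genes. On beadchip 1 alone there were 2 genes of the chromosome 17 protease list, 5 mast cell markers, 9 other proteases, 5 uterine gland genes, 2 flanking genes and 1982 probes. On beadchip 2 alone there were 6 mast cell markers, 9 other proteases, 5 uterine gland genes, 3 flanking genes and 2611 probes. Males alone gave 4288 probes and 3 tryptase partners, females alone 2410 probes, 9 other proteases and 2 partners, and the later date label 4817 probes, 3 partners and 3 flanking genes. Against these, all 6 arrays gave 7468 probes. Whether the replicate numbers pair the samples was not settled. The correlation of deviations was 0.203, −0.06 and −0.016 for numbers 1 to 3, and only number 1 matched its own number best. The replicate block gave 7415 calls. Signal over background limits all 5 members, whose knockout levels have only an upper bound.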

Other observations

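A few serine proteases outside the cluster were higher in the knockout. Tmprss3, a membrane protease needed for hearing, read 6.89 ± 0.14 in wild type and 7.71 ± 0.04 in the knockout (SD, n = 3 each) and rose by 0.81 (SE 0.10, adjusted p = 0.000222 by limma). Prss35 rose by 0.74 (SE 0.10, adjusted p = 0.00038), the airway and prostate protease gene Tmprss2 by 0.67 (SE 0.12, adjusted p = 0.00207) and the matriptase gene St14 by 0.41 (SE 0.11, adjusted p = 0.0146, with 2 other probes that did not pass). Prss16, a serine protease of another fold known from the thymic cortex, rose by 0.31 (SE 0.10, adjusted p = 0.0298) on 1 probe, while the other probe (0.23) did not pass. The call was lost for Tmprss3 in females alone, for Prss35 on beadchip 1 alone, for Tmprss2 on each beadchip alone and in females alone, and under 7 of 21 alternatives for St14 and 14 of 21 for Prss16. These genes were named after their values were seen.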
